A study of Mus musculus with 8 samples.

Results

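Thrsp and Chrna4 are 2 of the 19267 genes counted in mouse liver RNA. They were chosen by their readout, because both libraries of Elf4-/- mice lay above both libraries of WT mice under each of the 2 diets. The values that chose them, which are the genotype differences under each diet and the change of these differences with diet, are therefore given as descriptions without a test. The diet comparisons within a genotype were not the choice rule and were tested. All of their libraries were also used in the choice, so they are not independent of it.

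The liver samples came from male C57BL/6 mice, 9 weeks old at sampling. Mice called Elf4-/- carry a deletion of Elf4, which encodes an ETS transcription factor, and carry it in the intestinal epithelium alone, since they came from Elf4 loxp/loxp mice crossed with mice that express Cre recombinase from the villin promoter (Vil1-Cre). WT mice carried Cre as well, without the deletion. Each genotype received for 21 days a Lieber-DeCarli liquid diet, which held 5% (w/v) alcohol in the EtOH groups and isocaloric maltose dextrin in the Control groups. There were thus 4 groups of 2 libraries, namely WT-Control and WT-EtOH for WT mice, and Elf4-/--Control and Elf4-/--EtOH for Elf4-/- mice. Liver cells of both genotypes keep an intact Elf4 gene by this design. The labels do not say that the libraries of a group come from separate animals, so that p-values measure the spread between these libraries, which may be technical.

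Library totals ran from 6171051 to 9157362 counts, with between 16999 and 18297 genes detected, and 13993 genes had enough counts to be tested. Levels are given as CPM, the counts relative to the library total after scaling by TMM factors. All 9 of the hepatocyte markers with values, Alb, Apoa1, Apob, Ttr, Serpina1c, Cps1, Hnf4a, Asgr1 and Fgb, were tested, and their summed level was between 35168 and 79479 CPM in every library. Elf4 itself had 6 and 11 counts in the WT libraries on control diet and 27 and 36 in those on EtOH, against 12 and 6 in the Elf4-/- libraries on control diet and 14 and 34 in those on EtOH. These liver counts do not check the deletion, which was made in another tissue.

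Thrsp, also called Spot 14, encodes a small acidic protein of lipogenic tissues (liver, fat and lactating mammary gland). Its transcription is a classical example of control by thyroid hormone, insulin and dietary carbohydrate, and the factors known to act on it include ChREBP, SREBP-1c and the liver X receptor. Chrna4 encodes the alpha 4 subunit of neuronal nicotinic acetylcholine receptors, which are ligand-gated cation channels. In brain this subunit assembles mainly with the beta 2 subunit, encoded by Chrnb2.

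Thrsp (ENSMUSG00000035686.8) lies on chromosome 7 from 97412938 to 97417730, on the minus strand of GRCm38, the assembly of mm10. It is annotated as protein coding, with 2 transcripts that together cover 2 exonic blocks and 2189 bases. Chrna4 (ENSMUSG00000027577.14) lies on chromosome 2 from 181018380 to 181043546, also on the minus strand, with 5 transcripts in 8 exonic blocks of 5022 bases. No other annotated gene overlaps either of them on either strand. The 3′ end of Chrna4 is 0.017 kb from the end of Col20a1, a collagen gene on the opposite strand, and whether reads were counted by strand was not stated.

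Because the 2 genes moved together, their promoters are shown for comparison, from RefSeq and GRCm38.p6, 5′ to 3′ on the strand of the gene. Each run begins 250 bases before the RefSeq start and stops at the first base covered by an annotated exon. The rest of each window lies within annotated exons, and so do both CCAAT matches printed below for Thrsp. The RefSeq start of Chrna4, at 181039177, lies inside its annotated span, which ends at 181043546. Capitals mark motifs found by searching both strands.
Thrsp promoter, chr7:97417731-97417800: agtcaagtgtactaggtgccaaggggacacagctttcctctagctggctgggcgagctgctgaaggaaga
Chrna4 promoter, chr2:181039306-181039427: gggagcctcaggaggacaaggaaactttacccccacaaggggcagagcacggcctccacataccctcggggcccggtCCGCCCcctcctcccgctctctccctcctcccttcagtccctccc
Thrsp, CCAAT 52 bases before the start: gctgtgttgctCCAATggttgggctttg
Thrsp, CCAAT on the other strand, 79 bases before the start: caaacgctgggATTGGctcaaaacaggg

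In all, 7 motifs were searched in the 250 bases before each RefSeq start. CCAAT, the box bound by NF-Y, was found 2 times for Thrsp and 0 times for Chrna4, and 33.8% of 32851 promoter windows of the same length hold it. GGGCGG, the Sp1 box, was found 3 times for Chrna4 and 0 times for Thrsp, against 32.7% of all windows. The matches for Chrna4 at 89 and 51 bases before the start lie within annotated exons. The other motifs were in neither window, so that none of those searched was shared by both. The E-box CACGTG, a building block of carbohydrate response elements, was present in 6.02% of all windows. The sterol regulatory element core TCACNCCAC was present in 1.05% of them. The nuclear receptor site AGGTCA was in 14.0%. The core recognised by the ETS family, to which ELF4 belongs, was searched as CCGGAAG and found in 6.91%. The TATA box, searched as TATAAA, was in 12.4%. The GC content was 74.4% for Chrna4, with 95.4% of windows lower, and 53.6% for Thrsp, near the median of 52.4% over all windows. A match is only a run of letters, and its absence says nothing of elements elsewhere.

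Thrsp had 536 and 562 counts in the WT libraries on control diet and 212 and 418 in those on EtOH, against 5051 and 3690 in the Elf4-/- libraries on control diet and 2396 and 3350 in those on EtOH. On the scaled level this was 99.9 and 103 CPM in the WT libraries on control diet and 26.8 and 42.6 CPM in those on EtOH, against 518 and 550 CPM in the Elf4-/- libraries on control diet and 382 and 444 CPM in those on EtOH. The order of the groups from low to high was WT-EtOH, WT-Control, Elf4-/--EtOH and Elf4-/--Control. Under control diet the gap between genotypes lay between 103 and 518 CPM, and under EtOH between 42.6 and 382 CPM.

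Chrna4 had 92 and 63 counts in the WT libraries on control diet and 4 and 14 in those on EtOH, against 1137 and 594 in the Elf4-/- libraries on control diet and 485 and 289 in those on EtOH. Its levels were 17.2 and 11.6 CPM in the WT libraries on control diet and 0.506 and 1.43 CPM in those on EtOH, against 117 and 88.6 CPM in the Elf4-/- libraries on control diet and 77.3 and 38.3 CPM in those on EtOH. The groups followed the same order as for Thrsp. The WT-EtOH libraries held the only counts of Chrna4 below 20, so that the level there was measured least precisely. In bulk liver RNA, fewer cells that express a gene and less of its RNA per cell cannot be told apart.

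**Figure D1:**
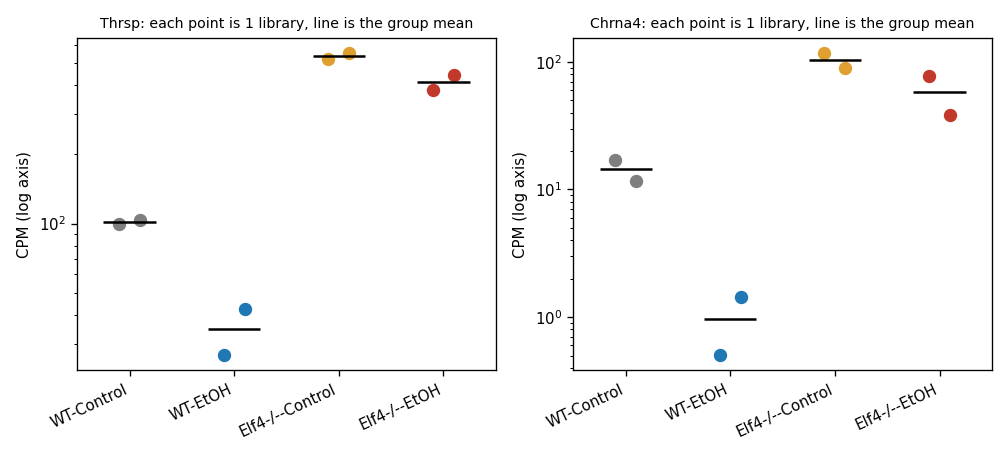
Levels of Thrsp (left) and Chrna4 (right) in CPM on a log axis for the 4 groups. Each point is 1 library and each line a group mean. For both genes WT-EtOH lies lowest, from 26.8 to 42.6 CPM for Thrsp and from 0.506 to 1.43 CPM for Chrna4, and both Elf4-/- groups lie above both WT groups.

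The fold difference between genotypes was larger under EtOH than under control diet for both genes, while the difference of the group means in CPM was smaller. Mean Thrsp was 34.7 ± 11.2 CPM in WT-EtOH and 413 ± 44.2 CPM in Elf4-/--EtOH (SD, n = 2), which corresponded to a log2 fold change of 3.57 ± 0.28 (SE), or 11.9-fold. Under control diet it was 102 ± 2.45 CPM in WT and 534 ± 23.2 CPM in Elf4-/- (SD, n = 2), and the log2 fold change was 2.39 ± 0.26 (SE), or 5.25-fold. The fold change of Thrsp ranked 28 from the top among all genes tested under EtOH and 80 under control diet.

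Mean Chrna4 was 0.966 ± 0.651 CPM in WT-EtOH and 57.8 ± 27.6 CPM in Elf4-/--EtOH (SD, n = 2), which corresponded to a log2 fold change of 5.82 ± 0.49 (SE), or 56.6-fold. Under control diet it was 14.4 ± 3.93 CPM in WT and 103 ± 19.7 CPM in Elf4-/- (SD, n = 2), with a log2 fold change of 2.84 ± 0.38 (SE), or 7.14-fold. These differences ranked 4 and 43 from the top. The size under EtOH rested on single libraries, since it became 6.78 on the log2 scale when WT-EtOH replicate 2 was left out and 5.23 when Elf4-/--EtOH replicate 1 was.

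As background for these descriptions, edgeR's quasi-likelihood test at an adjusted p under 0.05 called 0.121% of the 13993 genes higher and 0.0214% lower in Elf4-/- under EtOH, and 0.00715% higher and 0.00715% lower under control diet. The rule that chose both genes, with both Elf4-/- libraries above both WT libraries under each diet, was met by 505 genes or 3.61%. Its mirror image, with both Elf4-/- libraries below under each diet, was met by 3.24%. At an unadjusted p under 0.05 edgeR gave 6.18% of genes higher and 4.32% lower under EtOH, and 4.37% higher and 2.94% lower under control diet. DESeq2 called 1.21% higher and 0.259% lower under EtOH, of 12365 genes with an adjusted p, and 0.409% higher and 0.3% lower under control diet, of 11008.

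Of the 505 genes that met the rule, 376 had a mean of at least 50 counts and 23 of these had a log2 fold change over 1 under both diets. Ordered by the smaller of both log2 fold changes, Chrna4 and Thrsp came first, followed by Noct, Cyp7a1, Acly, Fads3, Ciart, mt-Nd3, Pmvk and Fasn. Noct, which encodes the rhythmic phosphatase nocturnin, was 2.12 ± 0.31 higher under EtOH and 1.81 ± 0.31 higher under control diet (log2, SE). Cyp7a1, the rate-limiting enzyme of bile acid synthesis, was 2.37 ± 0.68 and 1.75 ± 0.67 higher. Acly and Fasn make cytosolic acetyl-CoA and palmitate for lipogenesis, the pathway in which Thrsp is known, and Pmvk acts in the mevalonate pathway. These genes are named by the same values that chose Thrsp and Chrna4, so their direction is no result.

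Within these 10 genes the libraries of a group could still lie far apart. Fasn had 722 and 339 CPM in Elf4-/--Control and 169 and 619 CPM in Elf4-/--EtOH, while Thrsp had 518 and 550 CPM and 382 and 444 CPM in the same libraries. Acly had 287 and 113 CPM in Elf4-/--Control and 39.7 and 161 CPM in Elf4-/--EtOH. Elf4-/--EtOH replicate 1 was the lower library of its group for Fasn, Acly and Thrsp, but the higher one for Chrna4. The SE of the genotype difference under EtOH was accordingly 0.28 for Thrsp, 0.55 for Fasn and 0.60 for Acly.

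**Figure D2:**
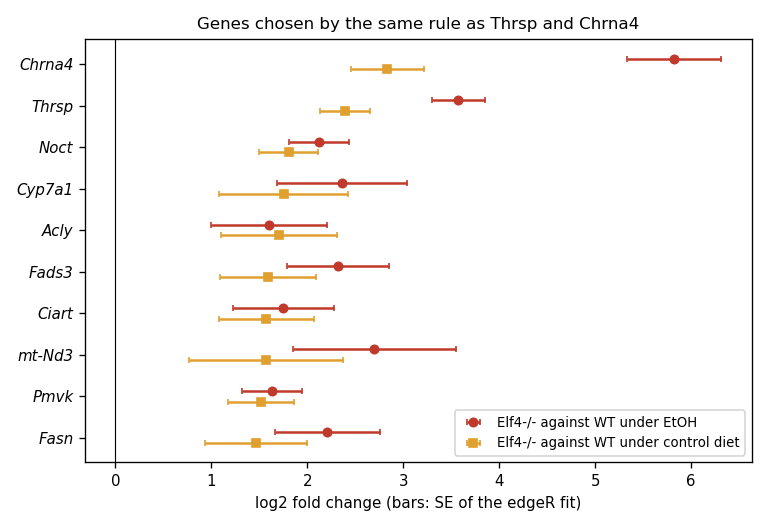
Log2 fold change of Elf4-/- against WT under EtOH (circles) and under control diet (squares) for the 10 genes with the largest smaller fold change among those chosen by the same rule. Bars are the SE of the edgeR fit. Chrna4 reaches 5.82 and Thrsp 3.57 under EtOH, and under control diet they lie at 2.84 and 2.39.

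The alcohol diet lowered both genes in WT liver. Thrsp went from 99.9 and 103 CPM in WT-Control to 26.8 and 42.6 CPM in WT-EtOH, and Chrna4 from 17.2 and 11.6 CPM to 0.506 and 1.43 CPM. The log2 fold change was −1.55 ± 0.26 (SE) for Thrsp, or 2.93-fold lower (quasi-likelihood test of edgeR, adjusted p = 0.00450 by Benjamini-Hochberg). For Chrna4 it was −3.82 ± 0.51 (SE), or 14.1-fold lower (edgeR, adjusted p = 0.00225). In this comparison 10.8% of genes were called lower and 10.8% higher. DESeq2 called 10.1% lower and 9.94% higher. With library totals alone edgeR called 4.53% lower and 24.5% higher, so that the balance of directions depended on the scaling.

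The fall in WT depended on the scaling in size but not in direction. With library totals alone the median of all genes shifted by 0.44 on the log2 scale, and the values were −1.11 for Thrsp (edgeR, adjusted p = 0.0142) and −3.38 for Chrna4 (edgeR, adjusted p = 0.00156). For Chrna4 the value was −3.32 without WT-EtOH replicate 1 and −4.79 without WT-EtOH replicate 2, and for Thrsp it was −1.26 and −1.93 (edgeR, adjusted p from 0.0179 to 0.0424 over these 4 fits). The summed level of the hepatocyte markers also was lower with EtOH in WT, at 57448 and 79479 CPM in WT-Control against 43188 and 35168 CPM in WT-EtOH. Of the 9 markers 8 had a negative log2 fold change there, with a median of −0.48 against 0.01 over all genes, and edgeR called Apoa1 lower by 2.34 ± 0.42 (log2, SE, adjusted p = 0.00592) while DESeq2 called Cps1, Apoa1 and Fgb lower. In Elf4-/- liver the sum was 67143 and 75032 CPM on control diet and 43732 and 57269 CPM on EtOH. The part of these markers in the fall of Thrsp and Chrna4 was not tested.

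In Elf4-/- liver neither gene passed the threshold between the diets. Thrsp had 518 and 550 CPM in Elf4-/--Control against 382 and 444 CPM in Elf4-/--EtOH, which is −0.37 ± 0.25 on the log2 scale (SE, edgeR, adjusted p = 0.422). Chrna4 had 117 and 88.6 CPM against 77.3 and 38.3 CPM, which is −0.83 ± 0.35 on the log2 scale (SE, edgeR, adjusted p = 0.208). The EtOH libraries were the lower ones for both genes, but the share of all genes that separate the diets this way was not counted. For Chrna4 the value was −1.42 without Elf4-/--EtOH replicate 1 (edgeR, adjusted p = 0.0550) and −0.43 without replicate 2 (edgeR, adjusted p = 0.400). Over all genes edgeR called 1.18% lower and 1.71% higher in this comparison, with 10.3% and 10.9% at an unadjusted p under 0.05, and DESeq2 called 2.9% lower and 3.66% higher of 12365 genes with an adjusted p.

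Averaged over both genotypes, the diet changed Thrsp by −0.96 ± 0.18 and Chrna4 by −2.32 ± 0.31 on the log2 scale (SE, edgeR, adjusted p = 0.00434 and 0.00105). Here 13.8% of genes were called lower and 14.1% higher, and with library totals alone 7.55% and 21.3%. The difference between the diet changes of the 2 genotypes, which equals the difference between the 2 genotype contrasts and was thus used in choosing the genes, was 1.18 ± 0.36 for Thrsp and 2.99 ± 0.62 for Chrna4 (log2, SE), given without a test. It was 0.71 for Thrsp with library totals alone, 0.87 without WT-EtOH replicate 1 and 1.54 without WT-EtOH replicate 2. As background, edgeR called 0 of the 13993 genes for this difference at an adjusted p under 0.05.

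Per kilobase of annotated exon, which allows genes to be compared, Thrsp was expressed at 46.4 ± 1.12 CPM per kb in WT mice on control diet and 15.9 ± 5.10 on EtOH, against 244 ± 10.6 and 189 ± 20.2 in Elf4-/- mice (SD, n = 2). This placed it at rank 884 and 2170 from the top among 13720 genes in WT, and at rank 188 and 250 in Elf4-/-. Chrna4 was at 2.86 ± 0.783 CPM per kb in WT mice on control diet and 0.192 ± 0.130 on EtOH, against 20.4 ± 3.93 and 11.5 ± 5.49 in Elf4-/- mice (SD, n = 2). Its rank was 7456 and 13403 in WT, and 1781 and 2933 in Elf4-/-. Of the ranked genes, 2.31% lay below Chrna4 in WT-EtOH and 87.0% in Elf4-/--Control. Genes that failed the count filter are not ranked, and Chrna4 had only 4 and 14 counts in WT-EtOH. These 2 groups differ in both genotype and diet, and the genotype difference was used to choose the gene.

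Chrna4 was the nicotinic subunit with the highest level per kilobase in both Elf4-/- groups. It was chosen because its Elf4-/- libraries lay above WT, so this order is no result. Among the 15 other subunit genes listed, 5 had values, and these were Chrna2, Chrna9, Chrnb1, Chrnb2 and Chrne. Chrnb2, the usual partner of Chrna4, was at 3.39 ± 0.171 CPM per kb in WT mice on control diet and 2.58 ± 0.427 on EtOH, against 2.91 ± 0.548 and 3.20 ± 0.490 in Elf4-/- mice (SD, n = 2). By group mean it lay above Chrna4 in both WT groups and below it in both Elf4-/- groups. In WT-Control the means lay within the spread of Chrna4, which was at 2.86 ± 0.783 there. It was counted with 147 and 160 in the WT libraries on control diet and 151 and 237 in those on EtOH, against 270 and 142 in the Elf4-/- libraries on control diet and 150 and 224 in those on EtOH. The genotype difference of Chrnb2 was 0.31 ± 0.22 under EtOH and −0.21 ± 0.22 under control diet, and its diet change was −0.39 ± 0.22 in WT and 0.13 ± 0.22 in Elf4-/- (log2, SE, edgeR, adjusted p from 0.232 to 0.899).

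Chrna2, the alpha 2 subunit, rose with EtOH in WT, where Chrna4 fell. It had 14 and 10 counts in the WT libraries on control diet and 51 and 72 in those on EtOH, against 28 and 23 in the Elf4-/- libraries on control diet and 28 and 36 in those on EtOH. The log2 fold change in WT was 1.63 ± 0.38 (SE, edgeR, adjusted p = 0.0168), and in Elf4-/- it was 0.56 ± 0.37 (SE, edgeR, adjusted p = 0.409). Chrnb1, the beta 1 subunit of muscle receptors, had between 3 and 35 counts with no call in the 4 comparisons of genotype or diet. Chrna9 and Chrne never exceeded 7 and 5 counts and were not tested.

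**Figure D3:**
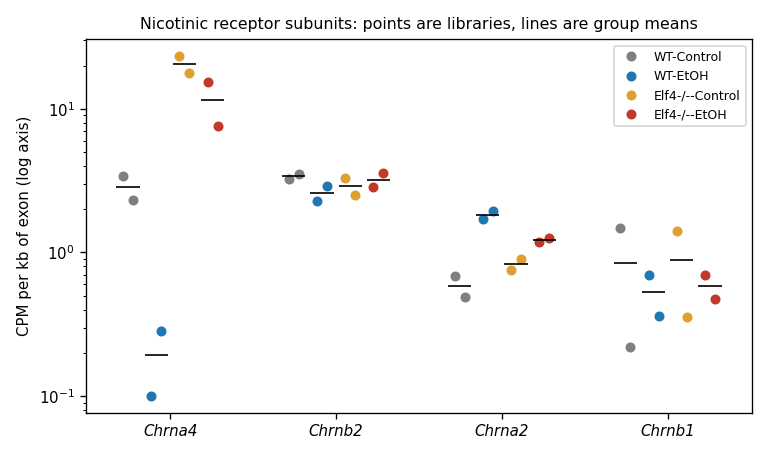
Levels of the nicotinic receptor subunits that were tested, in CPM per kb of annotated exon on a log axis. Points are libraries and short lines are group means. Chrna4 spans from 0.192 in WT-EtOH to 20.4 in Elf4-/--Control by group mean, while Chrnb2 stays between 2.58 and 3.39. The genotype difference of Chrna4 was used to choose it.

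Most other genes of acetylcholine signalling had few or no counts. Of 16 listed, 9 had values and 2 had enough counts to be tested, Ache and Bche, the enzymes that hydrolyse acetylcholine and other choline esters. Bche rose with EtOH in WT by 1.12 ± 0.23 (log2, SE, edgeR, adjusted p = 0.00906), where Chrna4 fell, and in Elf4-/- DESeq2 also called it higher. Neither gene was called between genotypes by edgeR or DESeq2, with 0 under EtOH and 1 higher under control diet at an unadjusted p under 0.05 (edgeR). The summed level of the 9 was 38.4 and 33.1 CPM in the WT libraries on control diet and 65.9 and 74.2 CPM in those on EtOH, against 51.2 and 54.4 CPM in the Elf4-/- libraries on control diet and 114 and 75.1 CPM in those on EtOH. The sum lay above WT in Elf4-/- under each diet, but under EtOH the nearest libraries were at 75.1 and 74.2 CPM. The median genotype difference of the 2 tested genes was 0.05 under EtOH and 0.74 under control diet (log2). Unlike Chrna4 the sum was higher with EtOH in both genotypes. The muscarinic receptors Chrm1, Chrm2 and Chrm3 and the receptor chaperone Ric3 had at most 6 counts in a library. Neuron and glia markers were sparse: of 14 listed, 5 had values and 3 were tested, and their summed level ran from 22.1 to 22.9 CPM in WT mice on control diet and 10.1 to 12.5 on EtOH, against 15.8 to 16.2 and 9.40 to 13.7 in Elf4-/- mice. The sum was thus lower in Elf4-/--Control than in WT-Control, and the part of these markers in the level of Chrna4 was not tested. None of the neuron and glia markers was called between genotypes.

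The lipogenesis enzymes, with which Thrsp is known to act, lay mostly above WT in Elf4-/-, and whether any was called depended on the tool. Of 18 listed genes 17 were tested, and 15 were higher under EtOH and 17 under control diet, with 0 called in either comparison by edgeR. At an unadjusted p under 0.05 edgeR gave 9 higher under EtOH and 10 under control diet, and 0 lower. DESeq2 called 4 higher under each diet, which were Fads2, Fasn, Acss2 and Acacb under EtOH and Fads1, Fads2, Me1 and Acacb under control diet. The median log2 fold change was 0.84 under EtOH and 0.85 under control diet, against 0.00 and 0.01 over all genes tested. Fasn was 2.21 ± 0.55 higher under EtOH (log2, SE, edgeR, adjusted p = 0.199) and 1.47 ± 0.53 under control diet (adjusted p = 0.589), and Acly was 1.61 ± 0.60 and 1.70 ± 0.60 higher (adjusted p = 0.396 and 0.568). The genotype difference of Thrsp, at 3.57 and 2.39, lay above that of each of the 17 enzymes under both diets. Thrsp was chosen by these values, so this order is no result. The closest paralogue of Thrsp, Mid1ip1, which promotes polymerisation of acetyl-CoA carboxylase, was 1.40 ± 0.62 higher under EtOH and 0.37 ± 0.59 under control diet (log2, SE, edgeR, adjusted p = 0.471 and 0.938).

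With the diet, the enzymes did not move as one group. Over all genes edgeR called 10.8% higher and 10.8% lower with EtOH in WT. Of the 17 enzymes 7 had a positive log2 fold change there, and 2 were called higher and 0 lower, while Thrsp fell. The 2 were Me1, the malic enzyme that supplies NADPH, with 2.26 ± 0.27 (log2, SE, edgeR, adjusted p = 0.00170), and Acacb, the mitochondrial acetyl-CoA carboxylase, with 1.70 ± 0.30 (adjusted p = 0.00511). Fasn changed by −1.17 ± 0.53, Acly by −0.90 ± 0.60, Mid1ip1 by −1.54 ± 0.62 and Scd1, the stearoyl-CoA desaturase, by −0.45 ± 0.31, none past the threshold (log2, SE, edgeR, adjusted p from 0.103 to 0.319). DESeq2 called the same 2 higher and also called Fasn lower. In Elf4-/- edgeR called Acacb, 1.44 ± 0.28 higher (log2, SE, adjusted p = 0.0309), and DESeq2 called Acacb higher and Acaca and Scd1 lower. The median over the 17 was −0.44 in WT and −0.12 in Elf4-/-.

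**Figure D4:**
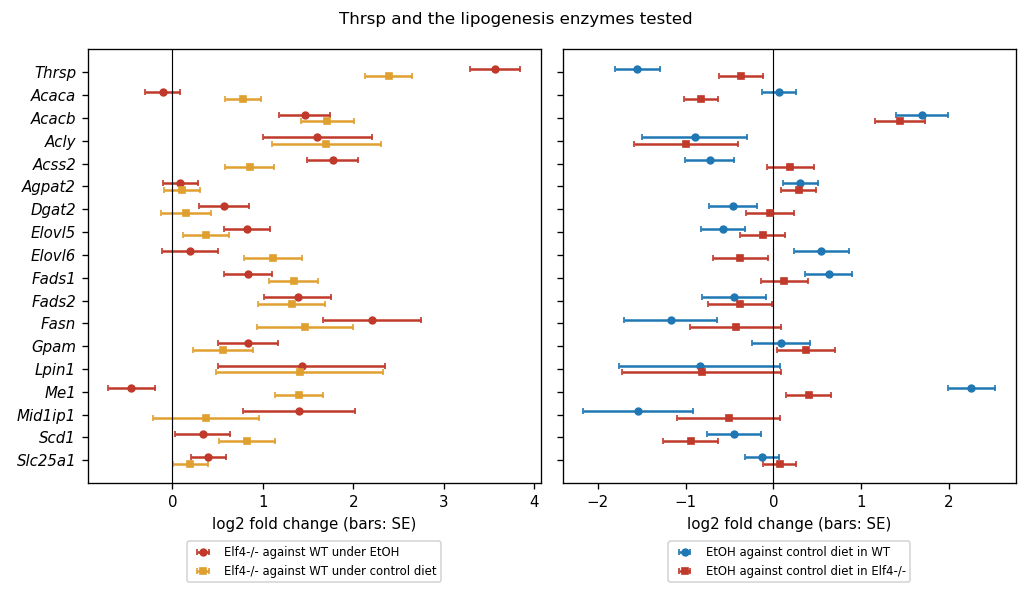
Log2 fold changes of Thrsp and the 17 lipogenesis enzymes tested, with the SE as bars. Left, Elf4-/- against WT under each diet; right, EtOH against control diet in each genotype. On the left side Thrsp lies farthest to the right of all, at 3.57 and 2.39, which are values that chose it. It lies at −1.55 and −0.37 on the right side, where Me1 and Acacb lie at 2.26 and 1.70 in WT.

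The listed lipogenic regulators, which include factors known to act on Thrsp, held no gene past the threshold between genotypes. Few genes of any kind passed it in edgeR, with 0.121% higher and 0.0214% lower under EtOH and 0.00715% each way under control diet. Of 16 lipogenic regulators tested, 0 were called under either diet by edgeR or by DESeq2, with 4 higher and 1 lower under EtOH and 1 each way under control diet at an unadjusted p under 0.05 (edgeR). The median log2 fold change was 0.11 under EtOH and 0.00 under control diet. Srebf1, which encodes SREBP-1c, was 1.62 ± 0.55 higher under EtOH and 0.15 ± 0.54 under control diet, Mlxipl, which encodes ChREBP, 0.12 ± 0.24 and −0.07 ± 0.23, and Nr1h3, the liver X receptor alpha, −0.00 ± 0.20 and 0.11 ± 0.20 (log2, SE, edgeR, adjusted p from 0.341 to 0.997). With EtOH in WT, 6 of the 16 fell along with Thrsp, and 0 rose. Srebf1 fell by 2.71 ± 0.57 on the log2 scale (SE, edgeR, adjusted p = 0.0109), Scap, which escorts SREBPs, by 1.15 ± 0.23 (adjusted p = 0.00813), and Mlxipl by 0.80 ± 0.24 (adjusted p = 0.0390). In Elf4-/- edgeR called 0 of the 16, with 6 lower and 1 higher at an unadjusted p under 0.05, and DESeq2 called Nr0b2, a corepressor of nuclear receptors, lower. Srebf1 changed there by −1.23 ± 0.54 (log2, SE, edgeR, adjusted p = 0.228).

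Among 12 tested genes of thyroid hormone signalling, 0 were called between genotypes under either diet by edgeR, and at an unadjusted p under 0.05 there were 0 under EtOH and 2 lower under control diet. DESeq2 called Thra lower under control diet. Thra, a thyroid hormone receptor gene, was 0.05 ± 0.31 under EtOH and −1.19 ± 0.30 under control diet, Thrb, the main receptor of liver, −0.03 ± 0.27 and −0.19 ± 0.27, and Dio1, the deiodinase that is itself a target of the hormone, 0.56 ± 0.25 and −0.02 ± 0.25 (log2, SE, adjusted p from 0.344 to 0.993). With EtOH in WT 2 of the 12 fell, Thra by 3.03 ± 0.32 (log2, SE, edgeR, adjusted p = 0.00120) and Klf9, a hormone-responsive factor, by 1.08 ± 0.30 (adjusted p = 0.0302). Thra also fell in Elf4-/-, by 1.79 ± 0.31 (log2, SE, edgeR, adjusted p = 0.0228). Thra and Nr1d1 overlap in the genome on opposite strands, and reads of such genes cannot be told apart where the counting used no strand.

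The genes listed as targets of ChREBP, a list that leaves out Fasn, Scd1 and Acacb, were mixed in direction between genotypes. Of the 13, 4 were higher in Elf4-/- under EtOH and 9 under control diet. Of 13 tested, 0 were called between genotypes by edgeR or DESeq2, and at an unadjusted p under 0.05 (edgeR) 1 was higher and 2 lower under EtOH and 3 were higher under control diet. They had a median log2 fold change of −0.26 under EtOH and 0.33 under control diet. In WT liver EtOH raised Txnip, an inhibitor of thioredoxin, by 2.46 ± 0.60 and Fgf21, a hepatic hormone, by 2.06 ± 0.46 (log2, SE, edgeR, adjusted p = 0.0192 and 0.0141), and lowered Slc2a2, the hepatic glucose transporter, by 1.41 ± 0.28 (adjusted p = 0.00810). Pklr, liver pyruvate kinase, was 0.42 ± 0.33 lower in Elf4-/- under EtOH and 0.81 ± 0.33 higher under control diet (log2, SE, edgeR, adjusted p = 0.724 and 0.649), and in Elf4-/- it fell with EtOH by 1.46 ± 0.33 (adjusted p = 0.0496). Of 9 LXR targets, 0 were called between genotypes by edgeR or DESeq2, with 2 higher and 1 lower under EtOH and 1 each way under control diet at an unadjusted p under 0.05 (edgeR), and in WT 2 rose and 1 fell with EtOH.

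Over the 8 libraries, Thrsp and Chrna4 had a Pearson r of 0.969 and a Spearman rho of 0.929 on log2 CPM. The libraries are 4 groups of 2, the genes were chosen for a shared genotype pattern, and so most of this likeness is the difference between groups. After each gene was centred on its group means, r was 0.40. The ratio of Thrsp to Chrna4 counts was 5.83 and 8.92 in WT-Control, 4.44 and 6.21 in Elf4-/--Control, 4.94 and 11.6 in Elf4-/--EtOH, and 53.0 and 29.9 in WT-EtOH. The groups other than WT-EtOH overlapped in this ratio, and WT-EtOH, where Chrna4 fell further than Thrsp, stood above them.

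Among the 9398 genes that averaged 50 counts or more, Chrna4 ranked 2 by r with Thrsp, and Thrsp ranked 3 by r with Chrna4. An r over 0.9 was found for 25 genes with Thrsp and for 29 with Chrna4, while the median r over all genes was 0.04 with either. The 10 genes most like Thrsp were Dmd, Chrna4, Noct, Decr2, Vcl, Zfx, Cmc1, Nudt2, Adss and Snx9, with r from 0.934 to 0.969. Those most like Chrna4 were Papss2, Snx9, Thrsp, Dmd, Vcl, Galnt4, Dhcr7, Gm49719, Nipsnap1 and Ank3, with r from 0.934 to 0.970. The lists of the 100 most like genes shared 67, which is 67.0% of each. All r values are descriptions over the same 8 libraries, which share depth and scaling.

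Most of the genes that tracked the pair did so with far smaller differences. Dmd, which encodes dystrophin, had 27.8 and 29.8 CPM in the WT libraries on control diet and 22.5 and 24.4 CPM in those on EtOH, against 39.8 and 39.7 CPM in the Elf4-/- libraries on control diet and 41.0 and 34.4 CPM in those on EtOH. Its genotype difference was 0.68 ± 0.18 under EtOH and 0.46 ± 0.18 under control diet (log2, SE). Decr2, a peroxisomal dienoyl-CoA reductase, differed by 0.36 ± 0.19 and 0.20 ± 0.19, and Vcl, which encodes vinculin, by 0.53 ± 0.18 and 0.52 ± 0.18 (log2, SE). Noct was the exception on the list for Thrsp, with 25.9 and 50.4 CPM in the WT libraries on control diet and 24.9 and 30.5 CPM in those on EtOH, against 117 and 150 CPM in the Elf4-/- libraries on control diet and 106 and 135 CPM in those on EtOH. Unlike Thrsp, Noct did not separate the diets in either genotype, with a diet change of −0.46 ± 0.31 in WT and −0.15 ± 0.29 in Elf4-/- (log2, SE).

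Papss2, which makes the sulfate donor PAPS, was the gene most like Chrna4. It had 164 and 169 CPM in the WT libraries on control diet and 68.0 and 73.2 CPM in those on EtOH, against 217 and 210 CPM in the Elf4-/- libraries on control diet and 215 and 175 CPM in those on EtOH. As for Chrna4, WT-EtOH was the lowest group and WT-Control the next, but both Elf4-/- groups overlapped. Its genotype difference was 1.46 ± 0.20 under EtOH and 0.36 ± 0.20 under control diet, and its diet change in WT was −1.24 ± 0.20 (log2, SE). Ank3, which encodes ankyrin-G, differed by 1.38 ± 0.34 and 0.69 ± 0.32 between genotypes and by −1.43 ± 0.35 with EtOH in WT (log2, SE).

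**Figure D5:**
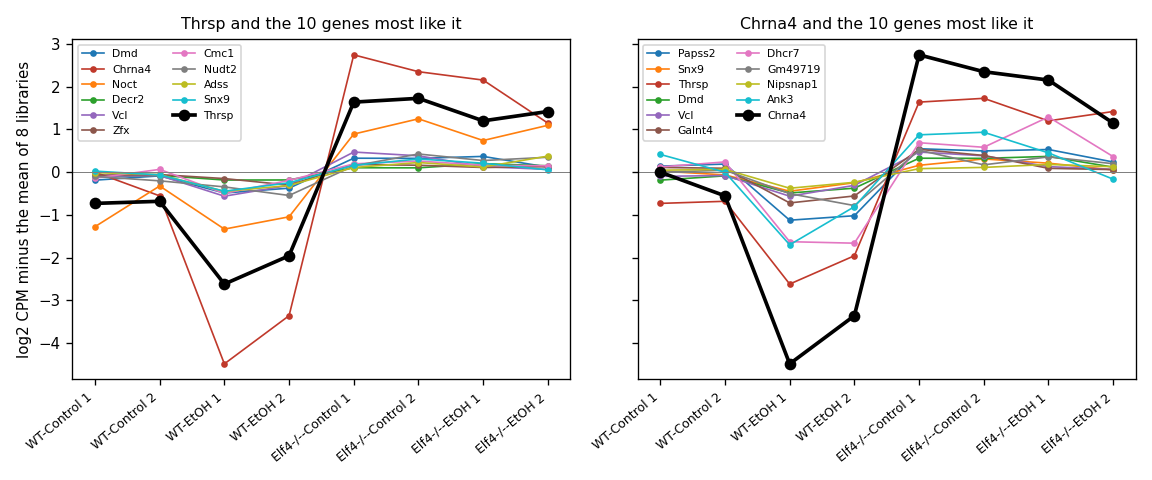
Log2 CPM in each of the 8 libraries, less the mean over the libraries, for Thrsp (left, black) and Chrna4 (right, black) with the 10 genes most like each. Lines only join the values of 1 gene. Thrsp and Chrna4 appear on each other's list and have the widest range there, and Chrna4 ranges from 0.506 to 117 CPM.

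Some genes of cholesterol synthesis were among those most like the pair. Of 20 listed genes of cholesterol synthesis and uptake that averaged 50 counts or more, 4 were among the 100 most like both, against 67 of all 9398 genes, a description with no test. They were Dhcr7, which was also among the 10 most like Chrna4, Sqle, Nsdhl and Sc5d. For Sqle, squalene epoxidase, r was 0.874 with Thrsp and 0.920 with Chrna4, and for Dhcr7, which catalyses the last step to cholesterol, it was 0.883 and 0.948. In the list of 22 tested genes of cholesterol synthesis and uptake, 7 were called higher in Elf4-/- under EtOH and 0 under control diet by edgeR, with medians of 1.74 and 0.32. At an unadjusted p under 0.05 (edgeR) these were 21 and 2, and DESeq2 called 15 and 1. Sqle was 3.69 ± 0.32 higher under EtOH (log2, SE, edgeR, adjusted p = 0.00173) but 0.42 ± 0.28 under control diet (adjusted p = 0.819), where Thrsp was 2.39 ± 0.26 and Chrna4 2.84 ± 0.38 higher. In WT 5 of the 22 fell with EtOH and 1 rose, and in Elf4-/- 5 rose and 0 fell, whereas Thrsp and Chrna4 were lower with EtOH in both genotypes, past the threshold in WT only.

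Noct and Ciart, a repressor of the circadian clock, met the choice rule. Of 15 listed clock genes that averaged 50 counts or more, Ciart and Bhlhe40 were among the 100 genes most like both. Ciart had 38.6 and 20.6 CPM in the WT libraries on control diet and 2.91 and 13.3 CPM in those on EtOH, against 74.1 and 102 CPM in the Elf4-/- libraries on control diet and 29.6 and 26.3 CPM in those on EtOH, with r of 0.843 with Thrsp and 0.898 with Chrna4. Of 17 clock genes tested, 0 were called between genotypes by edgeR, with 2 higher and 1 lower under EtOH and 7 and 2 under control diet at an unadjusted p under 0.05, while DESeq2 called Ciart higher under EtOH. With EtOH in WT 2 rose and 4 fell (edgeR). Nr1d1, the repressor REV-ERB alpha, fell by 2.84 ± 0.37 in WT and by 1.90 ± 0.36 in Elf4-/- (log2, SE, edgeR, adjusted p = 0.00220 and 0.0284), and its r was 0.126 with Thrsp. The part of the time of day in the levels of Thrsp and Chrna4 was not tested.

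Feeding state is a known influence on Thrsp. Of 10 fasting response genes tested, 0 were called between genotypes by edgeR, with 1 higher and 1 lower under EtOH and 1 higher under control diet at an unadjusted p under 0.05, and DESeq2 called Acot1 lower under EtOH and higher under control diet. The medians were −0.21 under EtOH and 0.13 under control diet. With EtOH 3 rose and 2 fell in WT, and 3 rose and 0 fell in Elf4-/-. Those that rose were Pdk4, Cyp4a14 and Acot1, which are targets of PPAR alpha, with log2 changes of 7.41, 7.49 and 7.43 in WT (edgeR, adjusted p from 0.000163 to 0.00906). Those that fell were Pck1, which opens gluconeogenesis, and the coactivator gene Ppargc1a, by 1.74 ± 0.49 and 1.33 ± 0.37 (log2, SE, edgeR, adjusted p = 0.0335 and 0.0304). Their part in the diet change of Thrsp was not tested.

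The 5 genes with the lowest r were Mpeg1, Ebna1bp2, Ddx51, Ccdc6 and Mars1 for Thrsp, and Ebna1bp2, Mpeg1, Clec4f, Socs2 and Tmed3 for Chrna4. Mpeg1, a perforin of macrophages, had an r of −0.984 with Thrsp, and Clec4f, which marks Kupffer cells, one of −0.946 with Chrna4. The summed level of 10 Kupffer cell markers was 254 and 201 CPM in the WT libraries on control diet and 767 and 678 CPM in those on EtOH, against 189 and 188 CPM in the Elf4-/- libraries on control diet and 300.1 and 263 CPM in those on EtOH. The sum was highest in WT-EtOH and lowest in Elf4-/--Control, but higher in Elf4-/--EtOH than in WT-Control, as Thrsp and Chrna4 were. With EtOH in WT 9 of the 10 rose, and in Elf4-/- 2 did (edgeR). Between genotypes, Clec4f and Cd5l were lower in Elf4-/- under EtOH, by 1.32 ± 0.20 and 1.69 ± 0.22 (log2, SE, edgeR, adjusted p = 0.0418 and 0.0268), and 0 of the 10 were called under control diet, by edgeR at either an adjusted or an unadjusted p under 0.05 or by DESeq2. The median over the markers was −1.35 under EtOH and −0.22 under control diet, with 3 of the 10 positive under control diet. Their part in the levels of Thrsp and Chrna4 was not tested.

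Markers of adipose tissue, which also expresses Thrsp, and of intestine, where Elf4 was deleted, were examined as well. Of 10 adipocyte markers 4 had values and 3 were tested, with summed levels between 74.7 and 192 CPM and no call between genotypes. Fabp4 rose with EtOH in WT, where Thrsp fell, and DESeq2 also called Fabp4 higher with EtOH in Elf4-/-. Of 8 intestinal epithelium markers 4 had values, with summed levels of 63.6 and 71.8 CPM in the WT libraries on control diet and 64.2 and 42.1 CPM in those on EtOH, against 104 and 102 CPM in the Elf4-/- libraries on control diet and 43.5 and 119 CPM in those on EtOH. The 3 that were tested gave no call between genotypes, and most of the sum came from Fabp2, a fatty acid binding protein. With EtOH in WT, where Thrsp and Chrna4 fell, 0 of the 3 had a positive log2 fold change, and the median was −1.26. There edgeR called 1 of them lower, against 10.8% of all genes, and DESeq2 called Lgr5 lower. The part of these markers in the levels of Thrsp and Chrna4 was not tested. Vil1 had at most 19 counts. Of 5 bile duct markers, 0 were called between genotypes by edgeR, also at an unadjusted p under 0.05, or by DESeq2.

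Of the 12 nearest genes with values, 3 on each side of Thrsp and of Chrna4, 6 had enough counts to be tested. Nearest to Thrsp among genes with values were Ndufc2, Gm16053 and Alg8 on one side and Kctd14, Ints4 and Gm24412 on the other. Ndufc2, a subunit of respiratory complex I that lies 5.14 kb away, was 0.34 ± 0.24 higher under EtOH and 0.34 ± 0.25 under control diet in Elf4-/- (log2, SE, edgeR, adjusted p = 0.690 and 0.836). The other tested neighbours, Alg8 and Ints4, gave no call in any of the 4 comparisons. Near Chrna4 lay Col20a1, Arfgap1 and Gm14341 on one side and Eef1a2, Ppdpf and Ptk6 on the other. Col20a1, which nearly touches Chrna4, was 0.84 ± 0.42 higher under EtOH and changed by −0.38 ± 0.47 under control diet in Elf4-/- (log2, SE, edgeR, adjusted p = 0.524 and 0.918). With EtOH it changed by 0.43 ± 0.45 in WT and 1.64 ± 0.44 in Elf4-/- (adjusted p = 0.520 and 0.0735), where Chrna4 changed by −3.82 and −0.83. Of the 6 tested, edgeR called Ppdpf alone in the 4 comparisons, with −0.99 ± 0.21 for EtOH in WT (log2, SE, adjusted p = 0.0100), where Chrna4 fell too.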

How the data were processed

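Liver RNA of 8 libraries, 2 in each of 4 groups of genotype and diet, was sequenced by the authors as paired-end reads on an Illumina HiSeq. Reads were checked with FastQC, mapped to mm10 with HISAT2, sorted with samtools and counted per gene with HTSeq, and the authors tested them with DESeq2. Tool versions, the annotation and the strand setting are not given in the sources used here. The authors deposited whole-number counts per gene symbol, not normalized. Unclear strand and annotation can affect counts of overlapping genes and the lengths used per kilobase.

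Genes were filtered with filterByExpr by group, which left 13993 of 19267. All 8 libraries entered 1 fit in edgeR 4.0.16 (R 4.3.3) with TMM factors and a factor of 4 groups. Contrasts were tested with the quasi-likelihood test, adjusted by Benjamini-Hochberg over all genes tested, with a threshold of 0.05. The common biological coefficient of variation was 22.7%. Log2 CPM for likeness used a prior count of 2 and genes that averaged 50 counts or more. The alternatives were DESeq2 1.42.0, its size factors, library totals, no filter, only the groups compared, the replicate number as a block, and each library left out.

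GENCODE M21 (GRCm38) gave coordinates and exon lengths, with 18748 symbols matched (97.3%), and RefSeq the promoters. Proteins were not used here. Replicates of a group differed by more than sampling noise, and no library was a copy. Counting error covers counting only, since PCR copies were not separated.

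The genes, lists and tests were chosen with earlier results of these data known. Genes named are Thrsp, Chrna4 and Elf4, the 10 most and 5 least like each of the pair and those among the 100 most like both, the 10 leading genes of the choice rule, up to 4 called genes a list plus fixed regulators and enzymes, all nicotinic subunits with counts, and the 3 nearest genes on each side. Fads1, Fads2, Cps1 and Fgb were named after their values were seen. Some results are not reported here.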

Additional observations from a re-analysis of the deposited data

How the results depend on the processing

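The diet comparisons of Thrsp and Chrna4, in WT, in Elf4-/- and as the mean of both genotypes, kept their direction and their side of the threshold in all 82 values from alternative fits. With the replicate number as a block, the diet change in WT was −1.57 for Thrsp and −3.76 for Chrna4 on the log2 scale (edgeR, adjusted p = 0.00600 and 0.00349). The labels do not say that a number pairs libraries, and replicate differences of 2 groups correlated at −0.134 to 0.114 across genes, and the libraries were not treated as paired. The block changed no call of either gene. Of 82 untested values, 73 moved by less than the spread between replicates. The genotype difference under EtOH ran from 3.27 to 3.94 for Thrsp and from 5.23 to 6.78 for Chrna4 with single libraries left out. The difference between the genotypes in diet change ran from 0.87 to 1.54 for Thrsp and from 2.39 to 3.94 for Chrna4, and with library totals alone it was 0.71 for Thrsp.

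Counts of genes called over the whole table were less stable. For genotype under EtOH, 20 became 182 with DESeq2, 50 without a filter, 0 with only the groups compared, 10 with the replicate block and 0 to 366 with single libraries left out. The unadjusted p was under 0.05 for 865 genes higher and 605 lower (edgeR). For genotype under control diet, 2 became 78 with DESeq2, 5 with library totals alone, 14 without a filter, 22 with only the groups compared and 0 to 53 with single libraries left out (edgeR, unadjusted p under 0.05 for 612 higher and 411 lower). For EtOH in WT, 1518 higher and 1507 lower became 3422 and 634 with library totals alone, and 3025 in all became 626 to 4023 with single libraries left out. For EtOH in Elf4-/-, 404 became 811 with DESeq2, 40 with only the groups compared, 240 with the replicate block and 9 to 1683 with single libraries left out. For the mean diet change, 1978 and 1938 became 2984 and 1057 with library totals alone, and 3916 in all became 2115 to 4697 with single libraries left out. Leaving out a library leaves its group with 1 library, assumed to vary like the others. Beyond the fewer libraries, the cause was not tested. Of the counts of list genes called, 723 stayed within 1.5 times and 173 did not. Of the pair, Chrna4 in WT-EtOH had the lowest counts, 4 and 14, which limits that level.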
